A study of Mus musculus with 7 samples.

Results

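The Tcl1 family of the mouse was described from Smart-seq2 libraries made at the germinal vesicle stage (GV) and at metaphase II (MII) of oocyte maturation. Its members were taken by symbol, as the listed entries named Tcl1, Tcl1b1, Tcl1b2, Tcl1b3, Tcl1b4 and Tcl1b5, which are 6 of the 25912 entries in each table. All 6 passed the filter on level, a mean of the 3 group means of at least 1 FPKM (a fragment count scaled to the transcript's length and to the mapped total), that left 9202 entries for testing. The oocytes came from ovaries of 4-week-old C57BL/6 females primed with PMSG, a gonadotropin, for 44 h, and each library was made from 10 oocytes. The GV group had 2 libraries. The labels give no agent for it, while the study's methods describe DMSO at a matching concentration for GV and MII controls, so whether the GV oocytes received DMSO was not settled here. The MII group with DMSO, the solvent control, had 3 libraries, and the MII group with BYBX, a small-molecule ligand that stabilizes RNA G-quadruplexes (rG4s), had 2. MII oocytes were reached by culture from the GV stage for 16 h, and the methods for these libraries name no dose of BYBX. The study's legend on translation efficiency, which sets such mRNA levels beside ribosome footprints, gives 1 μM. All 3 groups carry no engineered allele in the labels or methods. The labels do not say whether libraries of 1 group came from separate animals or cultures, so the spread between them may be technical. The comparisons address how member transcripts differed across the GV–MII transition and whether they differed when BYBX was present during it. The study reports that BYBX lowered the rate of first polar body emission and left abnormal spindles. The MII group with BYBX may therefore differ from that with DMSO in meiotic progress as well as in rG4s, and the part of each was not tested.

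TCL1 proteins are small beta-barrel proteins that bind the pleckstrin homology domain of AKT kinases and increase their activity. The human TCL1A gene is known as an oncogene of T-cell leukaemia, and in mice Tcl1 is known as a maternal factor of oocytes and early embryos and as a factor of embryonic stem cells. The Tcl1b genes are tandem copies next to Tcl1 of which the mouse has several, and Mtcp1, on another chromosome, is the remaining relative. AKT acts downstream of phosphoinositide 3-kinase, whose signal restrains FOXO transcription factors and supports growth through mTOR complexes. In growing oocytes this pathway is known for its part in follicle activation. During maturation most maternal mRNAs are cleared without new transcription, and the length of the poly(A) tail governs which transcripts are translated and which are removed.

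The 6 genes lie side by side on chromosome 12 of the mouse assembly GRCm38, the assembly that UCSC calls mm10, within 76.8 kb at chr12:105146014-105222793 (GENCODE vM21). Tcl1b2 (chr12:105146014-105155225), Tcl1b1 (chr12:105159690-105166625), Tcl1b5 (chr12:105176344-105181145), Tcl1b3 (chr12:105191043-105195612) and Tcl1b4 (chr12:105201957-105206993) follow each other on the plus strand. Tcl1 (chr12:105216750-105222793) closes the cluster on the minus strand. The longest protein-coding transcript of each member has 4 exons. These transcripts are 1009 to 1465 bases long, against a median of 2995 bases over the 8747 tested genes with a matched transcript (95.6% of 9154 tested names). Their coding sequences of 348 to 366 bases were 75.0% to 88.3% identical between pairs of Tcl1b genes (10 pairs) and 61.6% to 65.8% identical between Tcl1 and a Tcl1b gene (5 pairs). Identity was counted over aligned bases, which were 94.5% to 98.4% of the longer sequence in the Tcl1b pairs and 85.2% to 90.0% with Tcl1. Reads could therefore be shared between copies where the sequences are the same. Of all 150-base stretches, the read length, 3.8% of those of Tcl1b2 and 3.7% of those of Tcl1b3 occur in both genes, and none of those of the other 4 members occur in another gene. At 50 bases the shares were 34.1% for Tcl1b3, 31.4% for Tcl1b2, 20.8% for Tcl1b5, 13% for Tcl1b1, 2.8% for Tcl1b4 and 0 for Tcl1. At the read length, Tcl1b2 and Tcl1b3 are thus the only pair that shares stretches. Their coding sequences, 79.6% identical, are not the most alike of the family (88.3% for Tcl1b3 and Tcl1b5). The study's methods state that uniquely mapped reads were assembled, so a read that matches both copies may have been dropped.

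The ends of the transcripts differ between Tcl1 and the Tcl1b genes. The libraries were primed on poly(A) tails, so the stretch around each poly(A) signal is shown, 30 bases from the longest GENCODE transcript with the signal in capitals.
Tcl1: acggctggatttAATAAAgctttgtagaac
Tcl1b1: tgtttttaactaATTAAActttactgtttt
Tcl1b2: tgttttaaagtaATTAAActttactgtttt
Tcl1b3: tgtttttaactaATTAAActttattgtttt
The Tcl1b4 and Tcl1b5 stretches have the same letters as that of Tcl1b1. Within the last 100 bases of the transcript, searched on the sense strand, Tcl1 holds AATAAA, found in 66.7% of the 8747 genes, and the 5 Tcl1b genes hold ATTAAA, found in 22%. Tcl1 also holds TTTTAT in that window, a form of the cytoplasmic polyadenylation element, which regulates tail length in maturing oocytes. It starts 65 bases before the end and is in capitals below.
Tcl1: gaatgtgtgggaTTTTATgtggttctattt
No Tcl1b gene holds TTTTAT there (15.6% of genes do), and no member holds TTTTAAT (5.8% of genes). A predicted rG4, 4 runs of at least 3 G with gaps of 1 to 7 bases, was found in 0 of 6 member transcripts and in 18.7% of the genes. The member transcripts stood at percentiles of 5.8 to 14.7 for length among these genes. The 18.7% was not matched for length, so the 0 of 6 does not show that the family is unusual. All these motif matches describe letters in the reference only, and the rG4 signal of the members was not analysed here.

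The Tcl1b genes also share the sequence before their RefSeq starts. In the 250 bases before the start, the aligned bases were 73.6% to 99.2% identical (median 94.6%) in pairs of Tcl1b genes. Between Tcl1 and a Tcl1b gene they were 53.5% to 64.3% identical. The aligned bases made up 72.8% to 94.8% of the 250 in the Tcl1b pairs and 82.8% to 90.4% with Tcl1. A block of 25 bases, in capitals, occurs in the promoters of all 5 Tcl1b genes, not in that of Tcl1, and in 0.015% of 32851 promoters (5 of them) on the strand of the gene. It is shown within 80 bases for the Tcl1b genes whose levels differed least and most between GV and MII, at chr12:105159507-105159586 for Tcl1b1 and at chr12:105176161-105176240 for Tcl1b5, both on the plus strand of GRCm38.p6.
Tcl1b1: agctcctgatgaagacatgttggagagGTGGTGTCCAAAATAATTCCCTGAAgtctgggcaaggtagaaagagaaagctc
Tcl1b5: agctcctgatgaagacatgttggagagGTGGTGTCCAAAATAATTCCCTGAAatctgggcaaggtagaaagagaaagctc
The block starts 170 bases before the start of Tcl1b1 and 156 bases before that of Tcl1b5. In Tcl1b3 it starts at the first of the 250 bases searched, so its length of 25 bases may be cut by that edge. The block was chosen because the Tcl1b promoters share it, so its rarity elsewhere is a description.

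The libraries were those of oocytes by their markers, and their totals set the scale on which the members are read. All 12 oocyte markers, among them the zona pellucida genes, were over 1 FPKM in at least 1 library. Their summed level was 12730 to 16843 FPKM in GV, 3059 to 3880 FPKM in MII with DMSO and 7424 to 8225 FPKM in MII with BYBX. Of 14 granulosa and cumulus cell markers 3 passed 1 FPKM in any library and 1 was listed at 0 in all, with sums of 6.74 to 13.9 FPKM in GV and 1.94 to 3.34 FPKM in MII. Erythrocyte markers summed to at most 1.14 FPKM and leukocyte markers to at most 1.74 FPKM in any library, and 3 of the 6 leukocyte markers were listed at 0 in all. The authors had scaled the FPKM to an ERCC spike-in and, between batches, to GV libraries, so the total is not fixed: it was 402113 to 489569 FPKM in GV, 109732 to 127254 FPKM in MII with DMSO and 201482 to 246710 FPKM in MII with BYBX. Fewer oocytes in a library and less RNA per oocyte cannot be told apart.

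All 6 members were abundant at every stage, and Tcl1 was the highest. Tcl1, the founding member, stood at 952 and 773 FPKM in the 2 GV libraries, at 752, 1211 and 1173 FPKM in MII with DMSO and at 1351 and 885 FPKM in MII with BYBX. Its group means were 862 ± 126 (SD, n = 2), 1045 ± 255 (SD, n = 3) and 1118 ± 329 FPKM (SD, n = 2), and the 3 groups overlapped. Tcl1b1, the most abundant copy of the tandem array, measured 757 and 680 FPKM in GV, 549, 776 and 728 FPKM in MII with DMSO and 789 and 597 FPKM in MII with BYBX. Its groups overlapped as well, with means of 719 ± 54.8, 684 ± 119 and 693 ± 136 FPKM.

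Tcl1b2 and Tcl1b3, the copies that share 150-base stretches, had levels near each other. Tcl1b2 measured 402 and 353 FPKM in GV, 307, 327 and 342 FPKM in MII with DMSO and 333 and 259 FPKM in MII with BYBX. Every MII library lay below both GV libraries for Tcl1b2, with means of 378 ± 34.8, 325 ± 17.9 and 296 ± 51.9 FPKM. Tcl1b3 measured 337 and 281 FPKM in GV, 319, 405 and 414 FPKM in MII with DMSO and 443 and 320 FPKM in MII with BYBX, with overlap between all groups. Its means were 309 ± 40.1, 380 ± 52.4 and 381 ± 86.9 FPKM.

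Tcl1b4 and Tcl1b5 were the lowest members. Tcl1b4 measured 265 and 226 FPKM in GV, 131, 190 and 214 FPKM in MII with DMSO and 212 and 179 FPKM in MII with BYBX, with means of 245 ± 27.1, 178 ± 42.7 and 195 ± 23.8 FPKM. Tcl1b5 measured 146 and 126 FPKM in GV, 59.3, 93.5 and 101 FPKM in MII with DMSO and 106 and 63.8 FPKM in MII with BYBX. Both GV libraries were above all 5 MII libraries for each of these copies, and the 2 MII groups overlapped. With Tcl1b2, 3 of 6 members had every MII library below both GV libraries, as had 81.5% of the 9202 tested entries, so this separation was the common case. The means of Tcl1b5 were 136 ± 13.5, 84.6 ± 22.2 and 85.0 ± 29.9 FPKM. Mtcp1, the relative outside the cluster, was at 0.794 and 0.101 FPKM in GV and at 0.144 FPKM or below in every MII library, under the filter, and was not tested.

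**Figure D1:**
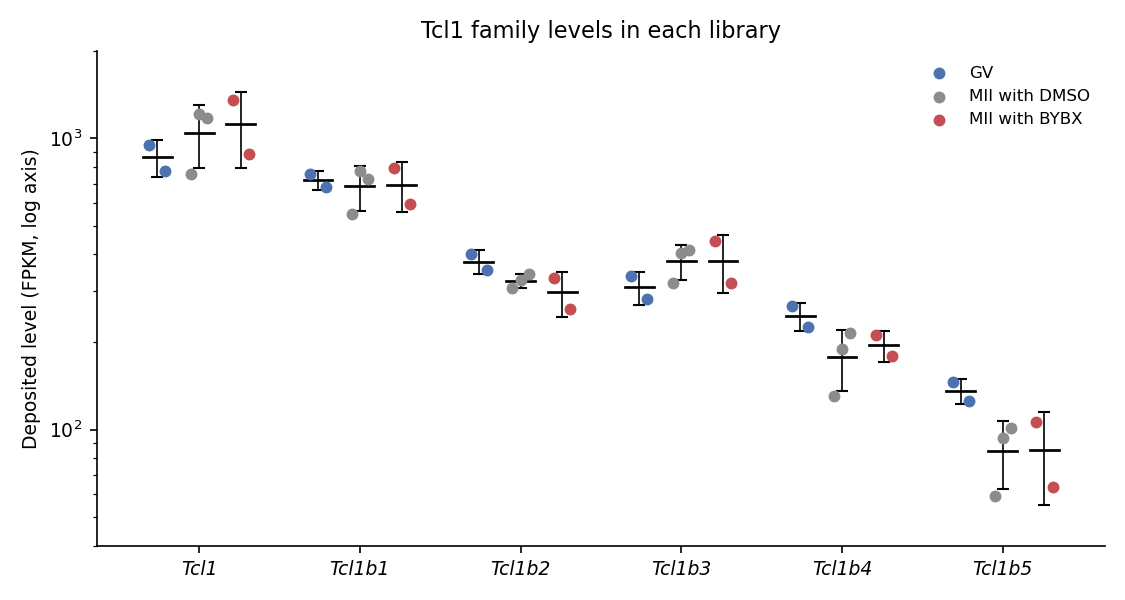
Each point is the deposited FPKM of 1 library on a log axis, for the 6 members in GV (n = 2), MII with DMSO (n = 3) and MII with BYBX (n = 2), with bars for the mean and whiskers for 1 SD. Tcl1 lies highest and Tcl1b5 lowest in every group, and the GV points of Tcl1b2, Tcl1b4 and Tcl1b5 lie above all of their MII points.

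The order of the levels was Tcl1, Tcl1b1, then Tcl1b2 and Tcl1b3, then Tcl1b4 and Tcl1b5. In GV no 2 neighbours in this order overlapped between libraries. In MII with DMSO and in MII with BYBX the libraries of Tcl1b2 and Tcl1b3 overlapped, and those of Tcl1 and Tcl1b1 overlapped with DMSO. Tcl1b2 was above Tcl1b3 in both GV libraries and below it in all 5 MII libraries, a pattern noted after the values were seen and given without a test. The log2 ratio of Tcl1b3 to Tcl1b2 was -0.25 and -0.33 in GV, 0.06, 0.31 and 0.27 in MII with DMSO and 0.41 and 0.30 in MII with BYBX. These are the copies that share 150-base stretches, and the part of shared reads in this ratio was not tested.

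Across the GV–MII transition with DMSO, 1 of 6 members, Tcl1b5, fell and 5 did not pass the test, while 88.3% of the 9202 tested entries were lower and 0.272% were higher (limma on log2(FPKM + 1), Benjamini-Hochberg adjusted p under 0.05). Tcl1b5 fell by 0.71 on the log2 scale (SE 0.30, 95% interval -1.37 to -0.06, limma adjusted p = 0.04). The intervals of the other 5 included 0, with log2 fold changes of 0.25 for Tcl1 (-0.34 to 0.85, limma adjusted p = 0.39), -0.08 for Tcl1b1 (-0.61 to 0.44, 0.74), -0.21 for Tcl1b2 (-0.72 to 0.29, 0.39), 0.29 for Tcl1b3 (-0.25 to 0.83, 0.28) and -0.48 for Tcl1b4 (-1.06 to 0.09, 0.10). The fall of Tcl1b5 rests on few libraries: the limma adjusted p was 0.20 without GV library 1 (log2 fold change -0.61), 0.096 without GV library 2 (-0.81) and 0.15 without MII library 1 with DMSO (-0.48). It was 0.097 when no filter on level was set. The libraries were primed on poly(A) tails, so the levels, ranks and shares given here are those of RNA captured by its tail. Tail length was not measured in them, and its part in differences between the groups was not tested.

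As a description, the median log2 fold change was -0.15 over the 6 members and -1.83 over all tested entries. The members stood high among the 9202 fold changes, at percentiles of 99.3 for Tcl1b3, 99.2 for Tcl1, 97.6 for Tcl1b1, 96.0 for Tcl1b2, 90.6 for Tcl1b4 and 84.0 for Tcl1b5. In plain levels the MII mean was 1.21 times the GV mean for Tcl1, 1.23 times for Tcl1b3, 0.952 times for Tcl1b1, 0.862 times for Tcl1b2, 0.727 times for Tcl1b4 and 0.622 times for Tcl1b5. The median tested entry was at 0.163 times its GV mean. Entries as abundant as the members were among those with large decreases: of the 584 other tested entries whose GV mean reached that of Tcl1b5 (136 FPKM), 530 were called lower (90.8%), 1 was called higher, and their median log2 fold change was -3.21. These entries were chosen by their GV level, which is 1 side of the comparison. Entries abundant only in MII are left out, so the choice itself favours decreases.

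Between BYBX-treated and DMSO-treated MII oocytes no member passed the test in either direction, by limma at adjusted p under 0.05 or at an unadjusted p under 0.05, while 65.2% of tested entries were higher and 0.0326% were lower with BYBX. The log2 fold changes were 0.10 for Tcl1 (95% interval -0.50 to 0.69), 0.02 for Tcl1b1 (-0.51 to 0.55), -0.15 for Tcl1b2 (-0.65 to 0.36), 0.00 for Tcl1b3 (-0.54 to 0.54), 0.15 for Tcl1b4 (-0.42 to 0.73) and 0.00 for Tcl1b5 (-0.66 to 0.65). Their limma adjusted p ran from 0.59 to 0.99. Each interval excluded the median change of all tested entries, 0.84 on the log2 scale, and the median over the members was 0.01. The mean with BYBX was between 0.91 and 1.09 times the mean with DMSO in all 6 members, and the median tested entry was at 2.57 times. The libraries of the 2 groups overlapped for all 6. Of the tested entries 79.0% were higher without overlap with BYBX than with DMSO, and 0.293% were lower. In data simulated for this comparison, with 200 of 9202 genes changed, the test recovered 30% of genes changed 2-fold and 87% of genes changed 4-fold. The real comparison called 65.2% of entries, which makes its adjusted threshold less strict, so these shares do not measure its power for the members. Differences of a member that lie inside the intervals above could pass unseen. Among the 584 entries of like or higher GV level, 441 (75.5%) were called higher with BYBX and 0 lower, with a median of 1.75.

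Between BYBX-treated MII and GV oocytes no member was called by limma, or had an unadjusted p under 0.05, while 69.2% of tested entries were lower and 0.315% higher. Log2 fold changes ran from -0.71 for Tcl1b5 (95% interval -1.43 to 0.00, limma adjusted p = 0.071) to 0.35 for Tcl1 (-0.30 to 1.0, limma adjusted p = 0.31), with a median of -0.20 over the members and -0.99 over all tested entries. Tcl1b2, Tcl1b4 and Tcl1b5 (3 of 6) were lower in both BYBX libraries than in both GV libraries, as were 82.3% of tested entries. Tcl1b5 passed the test when MII library 1 with BYBX was left out (-1.08, limma adjusted p = 0.024) or when MII library 1 with DMSO was (-0.71, limma adjusted p = 0.040). This comparison shares libraries with the other 2, and the values for Tcl1b5 stand side by side at -0.71 for MII with DMSO and -0.71 for MII with BYBX, each against the same GV libraries.

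**Figure D2:**
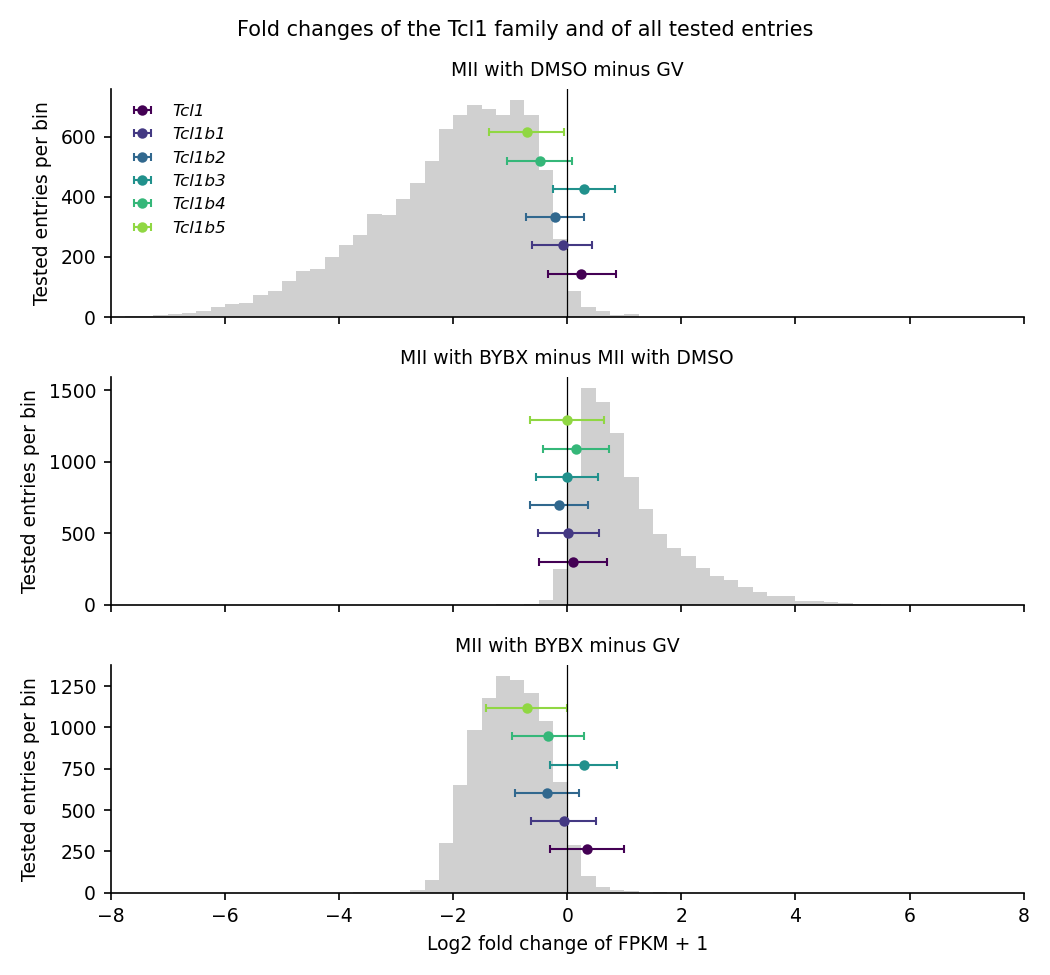
Grey bars count the 9202 tested entries in bins of 0.25 of the log2 fold change of FPKM + 1, and points with 95% intervals mark the 6 members at arbitrary heights, in 3 panels for MII with DMSO minus GV, MII with BYBX minus MII with DMSO, and MII with BYBX minus GV. The members lie near 0 in each panel, between -0.71 and 0.35, and the medians of all entries lie at -1.83, 0.84 and -0.99.

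The scaling of the libraries sets the direction of these comparisons. With every library set to the same total FPKM, all 6 members were called higher in MII with DMSO than in GV (log2 fold changes 1.16 to 2.17) and all 6 lower with BYBX than with DMSO (-1.04 to -0.74), by limma at adjusted p under 0.05. That scaling moved the median over all tested entries from -1.83 to -0.56 and from 0.84 to 0.34. On this scale 4557 entries were called lower and 2141 higher in MII with DMSO than in GV, and 756 lower and 3672 higher with BYBX than with DMSO. For MII with BYBX against GV it gave 1222 lower and 488 higher. Median centring gave the same directions for the members, with log2 fold changes of 1.59 to 2.60 in MII with DMSO against GV and -1.42 to -1.12 with BYBX against DMSO, while all tested entries split into 2456 lower and 4494 higher, 4040 lower and 1696 higher and, against GV with BYBX, 1250 lower and 1397 higher. The member values given before are those of the levels as the authors scaled them to the spike-in.

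The place of the members within a library does not depend on that scaling. Tcl1 ranked 60 and 65 from the top among all entries in GV, 17, 11 and 10 in MII with DMSO and 15 and 22 in MII with BYBX. Tcl1b1 ranked 79 and 76, then 27, 22 and 19, then 31 and 40. Tcl1b3 ranked 208 and 205, then 41, 37 and 36, then 68 and 81. Each of these genes stood higher in the list of every MII library than in either GV library. The same held for Tcl1b2, with ranks of 158 to 170 in GV, 44 to 49 in MII with DMSO and 96 to 100 with BYBX, for Tcl1b4 with 276 to 286, 71 to 102 and 143 to 163, and for Tcl1b5 with 565 to 617, 183 to 289 and 359 to 532. For all 6 the exact two-sided permutation test of the percentile between GV and MII with DMSO gave p = 0.1, the smallest that 2 against 3 libraries can give. Tcl1b1 to Tcl1b5 ranked lower with BYBX than with DMSO in every library (exact permutation p = 0.1 for each), and the ranks of Tcl1 overlapped (exact permutation p = 0.3). Of all tested entries 38.1% ranked lower with BYBX than with DMSO without overlap and 31% ranked higher, and between MII with DMSO and GV 44.1% ranked higher without overlap and 39% lower. Between MII with BYBX and GV 31.6% ranked higher without overlap and 34.3% lower. Such separation was thus common in both directions. The share of entries that ranked higher in all 5 MII libraries than in both GV libraries was not counted.

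The share of all listed FPKM taken by the family followed the same order. It was 0.584% and 0.607% in GV, 1.93%, 2.43% and 2.34% in MII with DMSO and 1.31% and 1.14% in MII with BYBX. No 2 groups overlapped. The exact permutation p was 0.1 for each comparison with MII with DMSO, and 0.33 for MII with BYBX against GV, the smallest that each design allows. The summed level of the family, by contrast, was 2859 and 2440 FPKM in GV, 2118, 3003 and 2973 FPKM in MII with DMSO and 3234 and 2304 FPKM in MII with BYBX. These sums overlapped between all groups, and the log2 difference was 0.01 between MII with DMSO and GV and 0.04 between BYBX and DMSO (exact permutation p = 1.0 for each).

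**Figure D3:**
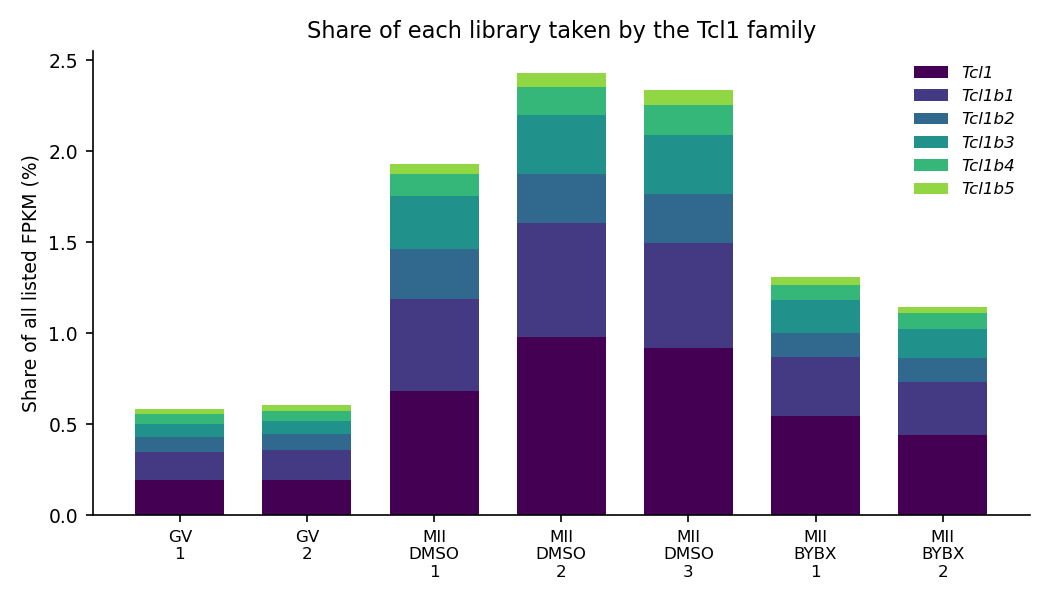
Each bar is 1 library and its height is the percent of all listed FPKM taken by the 6 members, stacked by gene. The bars reach 0.584% and 0.607% in GV, 1.93% to 2.43% in MII with DMSO and 1.14% to 1.31% in MII with BYBX, and Tcl1 is the largest piece of each.

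Within the family the shares of 5 members did not overlap between GV and MII with DMSO, and the 2 MII groups overlapped for every member. Tcl1 made up 33.3% and 31.7% of the family's FPKM in GV and 35.5%, 40.3% and 39.5% in MII with DMSO (exact permutation p = 0.2). Tcl1b3 made up 11.8% and 11.5% in GV and 15.1%, 13.5% and 13.9% in MII with DMSO. Its MII shares were all above its GV shares. Tcl1b4 made up 9.26% and 9.27% in GV and 6.19%, 6.33% and 7.20% in MII with DMSO. Tcl1b5 made up 5.09% and 5.18% in GV and 2.80%, 3.11% and 3.40% in MII with DMSO. For both of these copies, and for Tcl1b1 with means of 27.2% in GV and 25.4% in MII, the MII shares were all below the GV shares. As a share of the Tcl1b sum alone, the difference of Tcl1b1 turned from -1.77 to 1.06 percentage points. The exact permutation p was 0.1 for Tcl1b1, Tcl1b3, Tcl1b4 and Tcl1b5, which is the smallest possible, and 0.4 for Tcl1b2, whose groups overlapped. Adjustment over the 6 members could not bring any of these under 0.05. The shares with BYBX were 41.8% and 38.4% for Tcl1, 13.7% and 13.9% for Tcl1b3, 6.56% and 7.75% for Tcl1b4 and 3.28% and 2.77% for Tcl1b5. The exact permutation p between BYBX and DMSO ran from 0.5 to 0.8.

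**Figure D4:**
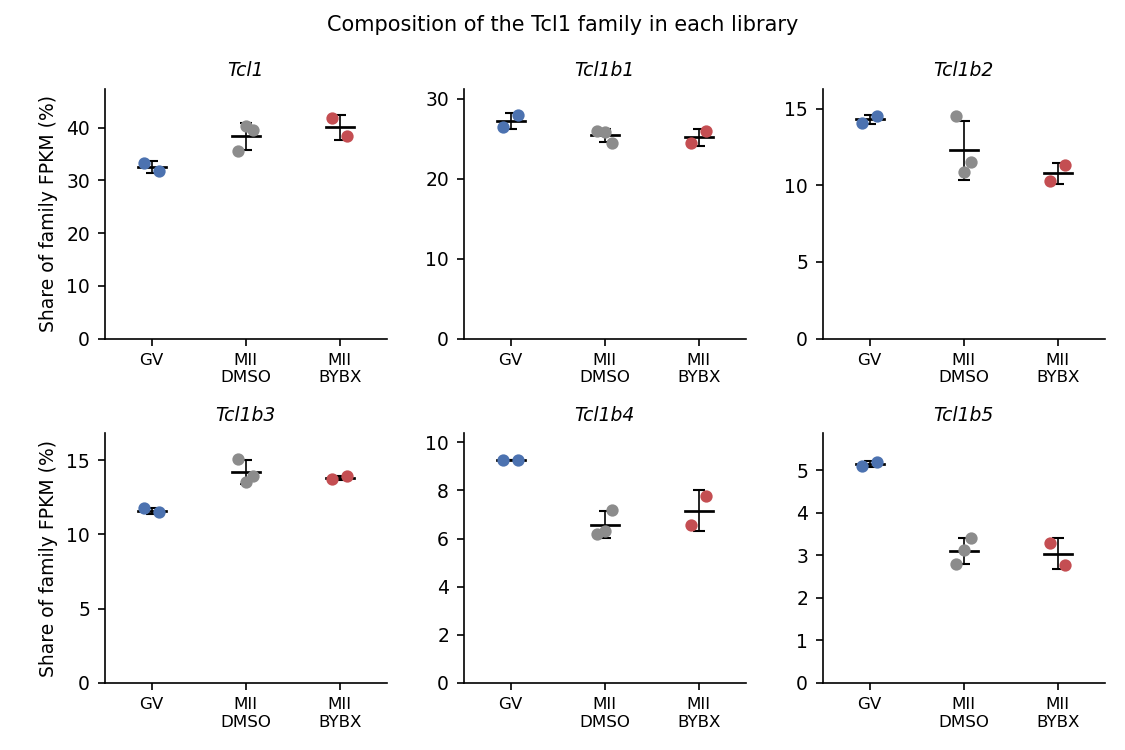
Each panel gives 1 member's percent of the summed FPKM of the 6 members in each library, from an axis that starts at 0, with bars for the group mean and whiskers for 1 SD. Tcl1b4 and Tcl1b5 have GV means of 9.26% and 5.14% and MII means of 6.58% and 3.10% with DMSO, and Tcl1b3 has 11.6% and 14.2%.

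The members moved together from library to library within a group. All 6 were lowest in library 1 of MII with DMSO, all 6 were higher in library 1 than in library 2 of MII with BYBX, and all 6 were higher in GV library 1 than in GV library 2. Over all tested entries 60.2% were higher in library 1 with BYBX and 82.2% were higher in GV library 1, so the order of the GV libraries was a general one. The mean log2 level of the members in MII library 1 with DMSO lay 0.32 below the group mean (shift -0.32), where the median shift of all tested entries was -0.04, and 44% of tested entries were lowest in that library. The members' shift was 0.23 and -0.23 in the 2 BYBX libraries, against medians of 0.06 and -0.06, and 0.11 and -0.11 in the 2 GV libraries, against 0.15 and -0.15. The members' order in the MII libraries was not limited to the family. Oosp1, an oocyte marker, measured 932, 1663 and 1541 FPKM with DMSO and 1734 and 1136 FPKM with BYBX. Rheb, Akt1 and Foxo1 had the same order, while Pdpk1 and Kit had the opposite one. Whether entries that kept their level shared this order as a set was not tested. The members lie in 1 cluster and share sequence, so they are not independent replicates of a condition.

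The genes with the most similar profile were sought by the root mean square difference of log2(FPKM + 1), each taken relative to its own GV mean, over the 7 libraries among 9201 other tested entries. For Tcl1 they were Bcas2, a component of a splicing complex, at 0.085, Pigp at 0.102 and Mad2l1bp at 0.112. For Tcl1b1 they were Cks1b, a partner of cyclin-dependent kinases, at 0.065, Wtap, a subunit of the RNA methyltransferase complex that makes N6-methyladenosine, at 0.086 and Ap1ar at 0.092. For Tcl1b2 they were Pde4a at 0.072, Fancm at 0.082 and Atxn3 at 0.096, and for Tcl1b3 Sash1 at 0.061, Spred2 at 0.084 and Tmem128 at 0.093. For Tcl1b4 they were Isoc1 at 0.071, Sycp3, a protein of the meiotic chromosome axis, at 0.074 and Rhebl1 at 0.077, and for Tcl1b5 Abl2 at 0.115, Ggct at 0.117 and Mphosph8 at 0.124. These are descriptions over 7 libraries that share their scaling. Several of these genes, such as Spred2 and Pde4a, had means under 2 FPKM, where adding 1 FPKM shrinks differences.

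Within the family, Tcl1 and Tcl1b3 had the most similar profiles, at 0.112. Tcl1b3 took place 4 in the list for Tcl1 and Tcl1 took place 5 in the list for Tcl1b3, where the median entry was at 1.58. Tcl1b1 and Tcl1b2 were each other's nearest member at 0.209, at place 150 in the list for Tcl1b1 and 142 in that for Tcl1b2. Tcl1b4 was nearest to Tcl1b2 at 0.237 (place 432) and Tcl1b5 to Tcl1b4 at 0.287 (place 304). For Tcl1b1, Tcl1b2, Tcl1b4 and Tcl1b5, many genes outside the family thus had closer profiles than any member. The profiles of Tcl1b3 and Tcl1b5 were the farthest apart at 0.858.

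The genes on either side of the cluster were followed in the same libraries. The nearest 5 listed protein-coding genes on each side included 6 that were tested, and all 6 fell in the MII group with DMSO relative to GV (limma), where 88.3% of all tested entries did. Glrx5, an enzyme of iron-sulfur cluster assembly 103108 bases before the cluster, had 64.3 ± 12.8 FPKM in GV, 0.648 ± 0.176 FPKM in MII with DMSO and 18.4 ± 1.74 FPKM in MII with BYBX. Its log2 fold change was -5.30 from GV to MII with DMSO (limma adjusted p = 4.0e-10) and 3.56 with BYBX against DMSO (limma adjusted p = 7.7e-08). Dicer1, the nuclease that makes small RNAs, had 23.0 ± 7.11, 7.0 ± 1.45 and 11.9 ± 3.0 FPKM (-1.57 in MII with DMSO against GV, limma adjusted p = 1.3e-04). The falls of Syne3 (-2.55), Gsc (-1.29), Bdkrb1 (-0.86) and Atg2b (-0.78) were also past the threshold. With BYBX against DMSO, Syne3 (1.21), Gsc (0.92) and Dicer1 (0.69) rose like Glrx5, while Bdkrb1 (0.46, limma adjusted p = 0.13) and Atg2b (0.50, limma adjusted p = 0.072) were not called, as the members were not. Clmn and Tunar were under the filter, and Bdkrb2 and D430019H16Rik were listed at 0.

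The AKT pathway, to which TCL1 proteins bind, was followed in a list of 40 genes, of which 28 passed the filter. In MII with DMSO against GV, 21 of the 28 fell (75.0%), 0 rose and 7 were not called, with a median log2 fold change of -1.16 beside -1.83 over all tested entries. With BYBX against DMSO 12 rose (42.9%) and 0 fell, with a median of 0.59 beside 0.84. In MII with BYBX against GV 15 fell (53.6%) and 0 rose, with a median of -0.58 beside -0.99. The shares called in these directions over all tested entries were 88.3%, 65.2% and 69.2%. With same total FPKM the counts in MII with DMSO against GV were 8 lower and 10 higher, so that their direction, too, depends on the scaling.

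By role, the receptors and adaptors were mostly under the filter: of 5 only Kit, the receptor of Kit ligand, was tested. It fell from 45.1 ± 18.9 FPKM in GV to 17.9 ± 3.43 FPKM in MII with DMSO (log2 fold change -1.24, limma adjusted p = 0.0014), and stood at 28.9 ± 2.99 FPKM with BYBX (0.68 against DMSO, limma adjusted p = 0.059). Of 5 tested phosphoinositide 3-kinase subunits 4 fell in MII with DMSO and 3 rose with BYBX against DMSO. Pik3cd, a catalytic subunit, was at 135 ± 35.7 FPKM in GV, 8.91 ± 1.36 FPKM in MII with DMSO and 42.3 ± 9.37 FPKM with BYBX. Its log2 fold change was -3.76 in MII with DMSO against GV (limma adjusted p = 1.6e-08) and 2.12 with BYBX against DMSO (limma adjusted p = 1.6e-05). All 3 tested phosphatases of the list fell in MII with DMSO, and 2 of them rose with BYBX against DMSO.

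Akt1, an AKT kinase to which TCL1 proteins bind, had 26.4 ± 1.40 FPKM in GV, 17.9 ± 5.42 FPKM in MII with DMSO and 21.6 ± 5.62 FPKM with BYBX, and passed no test (-0.58, limma adjusted p = 0.071, and 0.28, limma adjusted p = 0.39). Akt2, which falls outside the naming rule and was added after its values were seen, fell in MII with DMSO by 1.15 on the log2 scale (limma adjusted p = 0.015) and was not called with BYBX against DMSO (0.85, limma adjusted p = 0.074). Its level was lower, with a GV mean of 11.8 FPKM. Of the 9 tested genes of the mTOR complexes and their regulators 7 fell in MII with DMSO and 5 rose with BYBX against DMSO. Rheb, the GTPase that activates mTOR complex 1, did not pass either test, with 151 ± 0.38, 119 ± 13 and 138 ± 14.6 FPKM (-0.34, limma adjusted p = 0.19, and 0.22, limma adjusted p = 0.43). Of 6 tested AKT substrates and effectors 4 fell in MII with DMSO and 2 rose with BYBX against DMSO. Foxo1, a transcription factor that AKT restrains, fell from 26.5 ± 4.82 to 13.2 ± 3.63 FPKM (-0.99, limma adjusted p = 0.0077) and was at 18.7 ± 6.67 FPKM with BYBX.

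**Figure D5:**
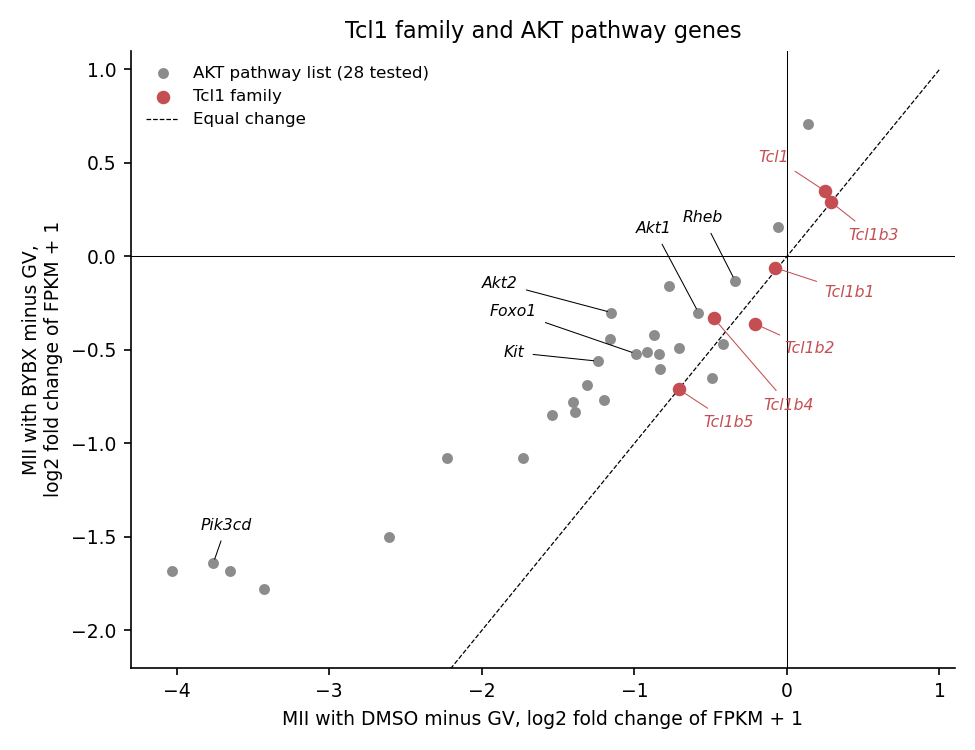
Each point is 1 gene, with the log2 fold change of FPKM + 1 in MII with DMSO minus GV on the horizontal axis and in MII with BYBX minus GV on the vertical axis, both against the same GV libraries, for the 28 tested genes of the AKT pathway list (grey) and the 6 members (red). The members lie near the dashed line of equal change, and Pik3cd lies at -3.76 and -1.64.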

How the data were processed

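Polyadenylated RNA of 10 oocytes per library was measured by Smart-seq2 in 2 GV, 3 MII with DMSO and 2 MII with BYBX libraries, grouped by their labels. Per the submitters' processing notes and methods, the authors used Trim Galore 0.6.7, HISAT2 2.2.1 on mm10 and Cufflinks 2.2.1, and scaled the FPKM values they deposited to ERCC spike-ins and, between batches, to GV. The scaling factors are not given in the sources used here, no ERCC entries are listed, and depth is unknown, so the number of libraries limits the precision. Of 25912 entries, 4 with a missing value were left out. Group means were compared with limma 3.58.1 (R 4.3.3, intensity trend) on log2(FPKM + 1) over 9202 entries of at least 1 FPKM, with all 7 libraries in 1 model (4 residual degrees of freedom), at a Benjamini-Hochberg adjusted p under 0.05. A fold change on this scale understates that of low genes. Per-library sums, shares and ranks were compared by exact two-sided permutation tests. The step was tested on simulated data. Motifs and identities were computed with Python 3.11.15 and biopython 1.88 on GENCODE vM21 transcripts and RefSeq promoters.

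The named genes were the 6 members, Mtcp1, the 5 pathway genes of highest level, the 3 genes of most similar profile per member and 5 flanking genes per side. The members and lists were chosen with earlier results of these data known. Tried beside these were 0.1 as the pseudocount, a filter at 5 FPKM, no filter, same total FPKM, median centring, the 2 groups alone, a replicate block, no trend and leaving out each library.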

Additional observations from a re-analysis of the deposited data

How the results depend on the processing

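Setting every library to the same total FPKM or centring it on its median turned the direction of most member values. With same total FPKM, 0 members were called lower and 6 higher in MII with DMSO against GV, 6 lower with BYBX against DMSO and 4 higher with BYBX against GV. The log2 fold changes in MII with DMSO against GV became 1.80 for Tcl1b1, 1.67 for Tcl1b2, 1.40 for Tcl1b4 and 1.16 for Tcl1b5. With BYBX against DMSO they became -0.80 for Tcl1, -0.87 for Tcl1b1 and -0.74 for Tcl1b4, and with BYBX against GV 0.93 for Tcl1b1, 0.63 for Tcl1b2, 0.66 for Tcl1b4 and 0.27 for Tcl1b5. The summed family level with BYBX against DMSO became -0.86 on the log2 scale. AKT pathway counts, lower and higher, were 8 and 10, then 3 and 7, then 1 and 2. With median centring the member counts were 0 lower and 6 higher, 6 lower, and 5 higher in the same order of comparisons. The log2 fold changes in MII with DMSO against GV were 2.22, 2.09, 1.82 and 1.59 for Tcl1b1, Tcl1b2, Tcl1b4 and Tcl1b5, those with BYBX against DMSO -1.18, -1.26 and -1.12 for Tcl1, Tcl1b1 and Tcl1b4, and those with BYBX against GV 0.96, 0.67, 0.70 and 0.31 for Tcl1b1, Tcl1b2, Tcl1b4 and Tcl1b5. The pathway counts were 4 and 22, 18 and 3, and 1 and 3. A filter at 5 FPKM, which tested fewer genes, left 10 pathway genes lower in MII with DMSO, 6 higher with BYBX against DMSO and 4 lower with BYBX against GV. With no filter on level 0 members were called lower. The shares of all entries called were not counted for these filters or for fits without a library. Counts under those settings are therefore values only. In shares of the Tcl1b sum alone, the differences of Tcl1b1 turned to 1.06, 0.673 and 1.73 percentage points in the 3 comparisons, and those of Tcl1b3 and Tcl1b5 with BYBX against DMSO to 0.0288 and 0.00821.

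Same-numbered libraries share only a number in the labels, and the correlations of their deviations ran from -0.601 to 0.487. With the replicate number as a block, Tcl1b5 was still called in MII with DMSO against GV (-0.86, limma adjusted p = 0.041), Tcl1b3 and Tcl1b5 stood at 0.06 and 0.14 with BYBX against DMSO, and 1 pathway gene was higher with BYBX against GV. Over all tested entries the block gave 7777 lower and 14 higher calls in MII with DMSO against GV. A block with crossed numbers, added after the data were seen, called 2 of 6 members lower in MII with DMSO against GV and 1 of 6 with BYBX against GV. Over all tested entries it called 89% and 72.7% lower in these comparisons. It called 1 pathway gene higher with BYBX against GV and put Tcl1b3 and Tcl1b5 at 0.06 and 0.14 with BYBX against DMSO. No label changed for a pseudocount of 0.1, a fit of the 2 groups alone or no trend.

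Leaving out each library in turn, the log2 fold changes with BYBX against DMSO ran from -0.21 to 0.40 for Tcl1, -0.18 to 0.22 for Tcl1b1, -0.32 to 0.03 for Tcl1b2, -0.24 to 0.23 for Tcl1b3, -0.05 to 0.30 for Tcl1b4 and -0.37 to 0.36 for Tcl1b5. Those of Tcl1b1 ran from -0.18 to 0.07 in MII with DMSO against GV and from -0.27 to 0.14 with BYBX against GV. The log2 difference of the summed level ran from -0.10 to 0.18, from -0.21 to 0.28 and from -0.20 to 0.29 in MII with DMSO against GV, BYBX against DMSO and BYBX against GV. Differences in family share with BYBX against DMSO ran, in percentage points, from -0.00926 to 3.34 for Tcl1, -1.02 to 0.488 for Tcl1b1, -0.714 to 0.0754 for Tcl1b3, -0.0141 to 1.18 for Tcl1b4 and -0.335 to 0.177 for Tcl1b5. From 0 to 1 members were called lower in MII with DMSO against GV and with BYBX against GV. Of the pathway genes 0 to 2 were called higher with BYBX against GV (1 without GV library 1, 1 without MII library 1 with DMSO, 2 without MII library 2 with BYBX), and 1 was called lower with BYBX against DMSO without MII library 1 with BYBX, 0 otherwise.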
